A study of Mus musculus with 12 samples.

Results

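Adipokines are proteins that fat cells secrete into the blood or into the fat depot. The 9 genes described here encode secreted hormones of this kind, namely Adipoq, Lep, Retn, Agt, Rarres2 and Apln, the retinol carrier Rbp4, the lipocalin Apod, and Nampt, an enzyme that is also released. They were chosen by symbol, as the listed symbols that the platform annotation gives to probe sets with a single gene symbol. All 9 symbols were on the array, among 18193 genes named in this way, and together they had 14 probe sets. All 9 also passed the filter on dim genes and were among the 13752 genes tested.

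The study measured total RNA of mouse fat cell cultures on 12 single-colour expression arrays, 3 for each of 4 groups. White preadipocytes were 3T3-L1 cells, an established mouse preadipocyte line, on day 0, which fell 2 days after confluence. White adipocytes were the same line on day 10, after 3 days of induction with insulin at 1 µg/mL, the glucocorticoid dexamethasone at 1 µM and the phosphodiesterase inhibitor IBMX at 0.5 mM, and then 2 more days with insulin. Brown preadipocytes were cells of a brown fat line on day 0. Brown adipocytes were that line on day 8, after 3 days of induction with the same doses of IBMX and dexamethasone, insulin at 20 nM, the thyroid hormone T3 at 1 nM and indomethacin at 125 µM, and then with insulin and T3 until harvest. The preadipocyte groups had no induction mixture. The lines were also grown in different sera. Line, serum, induction mixture and day of harvest therefore differ together and cannot be told apart in any comparison of brown with white adipocytes. The origin of the brown line is not given in the sources used here, and nothing says that the 3 arrays of a group came from separate cultures, so that p-values measure the spread between these arrays, which may be technical.

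Adiponectin, the product of Adipoq, and resistin, the product of Retn, are made almost only by fat cells in the mouse, and adiponectin circulates as large complexes assembled in the endoplasmic reticulum. Leptin, the product of Lep, reports the size of fat stores to the brain. Angiotensinogen (Agt) is the precursor of the angiotensins, chemerin (Rarres2) is a chemoattractant that also acts on fat cells, and apelin (Apln) is a peptide hormone of the circulation and of fat. The carriers differ from these: Rbp4 takes retinol from cells into the blood, and Apod binds small lipids. Nampt is best known inside the cell, where it makes the precursor of NAD, and its secreted form is called visfatin.

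Promoters are shown for 4 members with different patterns across the groups: Adipoq, already high in uninduced brown cells, Lep, measurable in brown adipocytes alone, Rbp4, high in both brown groups, and Agt, which moved in opposite directions in the lines. Each sequence is RefSeq's in build GRCm38.p6 and runs 5′ to 3′ on the gene's strand from 250 bases before the start to 50 after it, with motif matches in capitals.
Adipoq promoter (chr16:23146286-23146585, plus strand): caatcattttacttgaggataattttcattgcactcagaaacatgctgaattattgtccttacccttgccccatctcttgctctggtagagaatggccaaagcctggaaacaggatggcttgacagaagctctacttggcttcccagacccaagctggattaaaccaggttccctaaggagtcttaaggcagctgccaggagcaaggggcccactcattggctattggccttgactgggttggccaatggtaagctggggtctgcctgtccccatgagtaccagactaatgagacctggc
Lep promoter (chr6:29059971-29060270, plus strand): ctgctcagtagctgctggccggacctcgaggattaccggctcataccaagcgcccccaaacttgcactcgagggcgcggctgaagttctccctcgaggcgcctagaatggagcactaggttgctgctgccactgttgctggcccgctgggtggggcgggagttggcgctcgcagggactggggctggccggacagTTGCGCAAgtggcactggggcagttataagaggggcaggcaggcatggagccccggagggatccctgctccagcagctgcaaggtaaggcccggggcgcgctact
Rbp4 promoter 1 (chr19:38124762-38125061, minus strand): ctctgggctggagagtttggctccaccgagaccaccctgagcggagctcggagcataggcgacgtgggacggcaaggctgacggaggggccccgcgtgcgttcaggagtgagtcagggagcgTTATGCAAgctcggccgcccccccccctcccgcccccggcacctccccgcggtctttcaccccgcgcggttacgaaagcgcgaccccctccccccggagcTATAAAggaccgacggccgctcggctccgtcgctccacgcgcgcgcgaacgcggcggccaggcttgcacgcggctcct
Agt promoter (chr8:124569657-124569956, minus strand): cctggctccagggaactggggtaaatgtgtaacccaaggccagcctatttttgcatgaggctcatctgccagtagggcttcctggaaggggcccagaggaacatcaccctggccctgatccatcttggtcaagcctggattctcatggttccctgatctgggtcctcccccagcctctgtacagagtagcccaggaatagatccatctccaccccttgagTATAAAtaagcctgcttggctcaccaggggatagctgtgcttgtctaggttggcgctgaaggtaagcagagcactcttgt
The motifs TATAAA, TTGCNNAA and AGGTCA were searched on both strands. The first is the TATA box, the next a core of the kind bound by the C/EBP factors, and the last the core bound by nuclear receptors. The table held promoters for 8 of the 9 members, 9 sequences in all since Rbp4 had 2, and none for Rarres2. TATAAA lay from base -30 to base -25 of Agt and from -28 to -23 of the first Rbp4 promoter, counting the base before the start as -1. TTGCNNAA matched Lep from -55 to -48 as TTGCGCAA, which reads the same on both strands, and the first Rbp4 promoter on the minus strand from -128 to -121 as TTATGCAA. AGGTCA lay in Nampt from -151 to -146. These letters did not occur in the windows of Adipoq, Retn, Apln and Apod or in the second window of Rbp4. Of all 32851 promoters of this length in the table, 13.6% held TATAAA, 10.8% TTGCNNAA and 16.3% AGGTCA. The matches describe the letters and no binding was measured.

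The values are the authors' array signals on a linear scale, which have the same trimmed mean on every array. A signal is set against other arrays of the same probe set and never against another gene, since probe sets differ in brightness for the same amount of RNA. The 40th percentile of an array, at a signal of 32.9 to 41.2, served as a guide to dim signals. Differences are on the log2(signal + 16) scale from limma, where adding 16 shrinks changes that start from a dim level. A gene passed the test when its p, adjusted by Benjamini-Hochberg over the 13752 genes tested, was under 0.05. Because these were bulk cultures, fewer cells of a type and less RNA per cell cannot be told apart.

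The labels were checked against marker genes. Of 5 fat cell markers on the array, 4 lay above the 40th percentile on all arrays of the white preadipocytes and 5 in each other group. Their summed signal was 8506 to 9330 in white preadipocytes, 31647 to 37257 in brown preadipocytes, 76932 to 85849 in white adipocytes and 60839 to 63559.5 in brown adipocytes. The uninduced brown cells thus carried Fabp4, Pparg and Cebpa at 27420.5, 3188 and 2917, all above the white preadipocytes at 8050.2, 649.9 and 50.7. Of 6 brown fat markers, 5 were above the 40th percentile on all arrays in brown adipocytes, 3 in brown preadipocytes, 1 in white adipocytes and 0 in white preadipocytes. Ucp1, the uncoupling protein of brown fat, was at 382 ± 74.5 (SD, n = 3) in brown adipocytes and at 18.3 or less in the other groups. Of 4 preadipocyte markers on the array, 1 was above the 40th percentile on all arrays of the brown adipocytes and 3 in each other group. These were Dlk1, Pdgfra and Thy1 in both white groups and Dlk1, Pdgfra and Cd34 in brown preadipocytes. The summed signal of the 4 was 10588.7 to 12421 in white preadipocytes, 6396 to 7056 in brown preadipocytes, 4076 to 4651 in white adipocytes and 179 to 215 in brown adipocytes. Pdgfra, a receptor of fat cell progenitors, had means of 2595 and 5514 in white and brown preadipocytes, and of 2969.7 and 131 after differentiation of each. Dlk1 and Thy1 went the other way between preadipocytes, at 6452 and 2229 in white and 981 and 44.6 in brown cells. After differentiation Dlk1 and Thy1 were at 779 and 654 in white and 31.8 and 6.54 in brown cells. Cd34 was at 110 in brown preadipocytes and at 15.9 to 21.6 in the other groups. Endothelial and liver markers were above the 40th percentile on all arrays in no group, and macrophage markers in 2 to 4 of 7, with Itgam and Ptprc in none. Csf1r was so in all 4 groups and Lyz2 in all but brown adipocytes. Lyz2 had means of 870, 492 and 46.5 in white preadipocytes, white adipocytes and brown preadipocytes. The macrophage sum was 1074 to 1238 in white and 320 to 344 in brown preadipocytes. In adipocytes this sum was 733 to 807 in white and 311 to 313 in brown cells. Skeletal muscle markers were above the 40th percentile on all arrays in 1 or 2 of 6, Acta1 and Ckm, with Myog, Myh1 and Myh3 in none and a summed signal of 211 to 349.8. Replicate arrays correlated at 0.978 to 0.982 and arrays of different groups at 0.885 to 0.935. The 3′ to 5′ signal ratio of beta-actin, a measure of RNA length, was 2.25 in white and 2.42 in brown adipocytes against 1.40 and 1.49 in the preadipocytes, while that of Gapdh was 0.775 to 0.861 in all groups. Its part in the differentiation changes below was not tested.

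**Figure D1:**
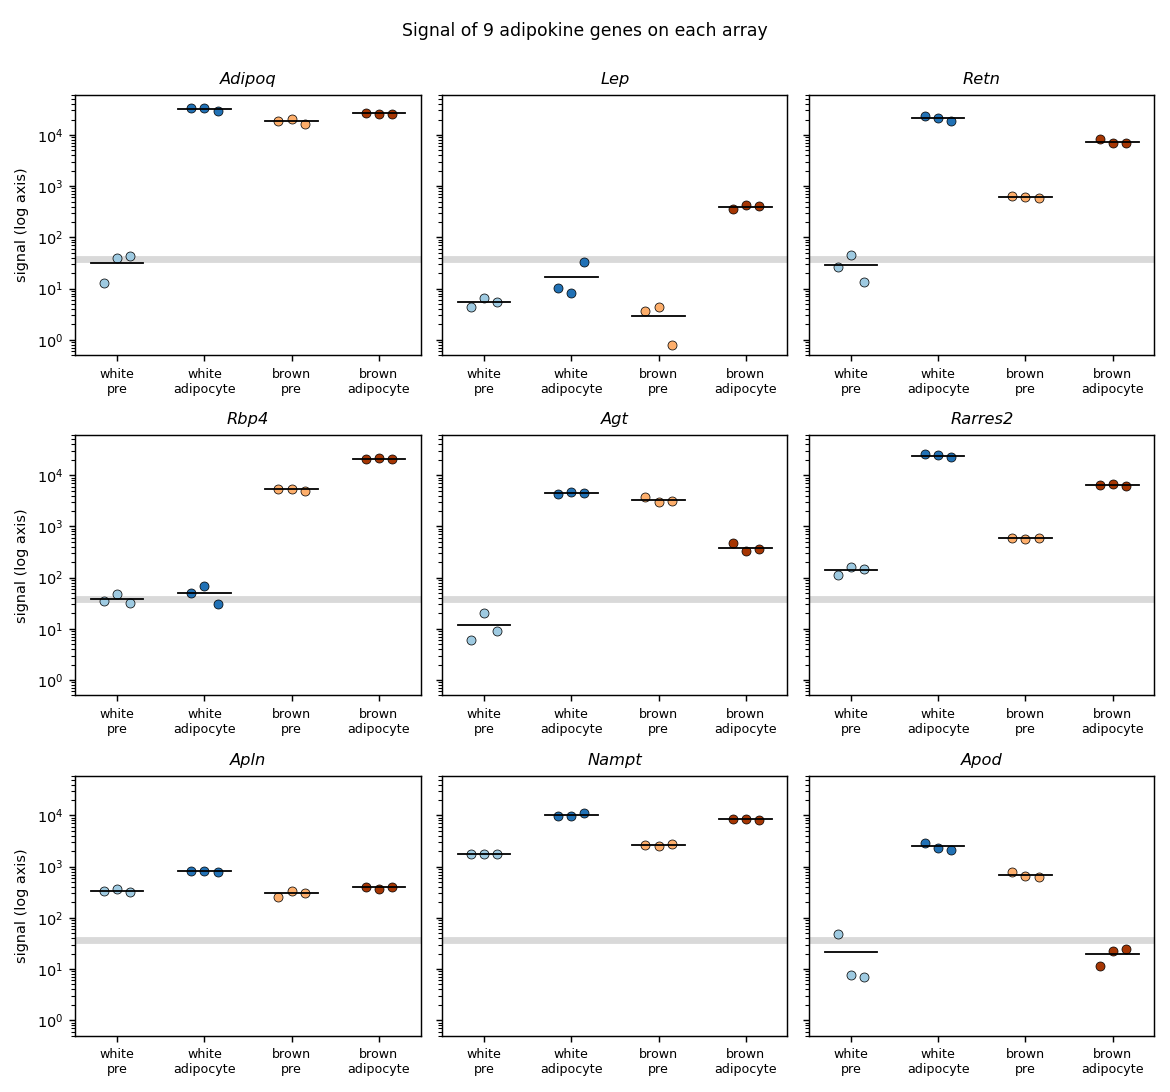
Signal of the 9 adipokine genes on each of the 12 arrays, on a log axis; each point is an array, the bar is the group mean, and the grey band is the range of the arrays' 40th percentiles, 32.9 to 41.2. Adipoq lies at 16205 or higher in 3 of the 4 groups, Lep is above the band in brown adipocytes alone, Rbp4 is high in both brown groups, and Agt and Apod fall in the brown line.

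White differentiation raised 7 of the 9 genes, lowered 0 and left 2, Lep and Rbp4, short of the threshold. Of all genes tested, 61.3% passed in this comparison, 30.1% upward and 31.2% downward, so that a passing gene is common here. The median log2 change of the 9 was 6.24 against 0.021 over all genes tested. Brown differentiation raised 6, lowered 2 (Agt and Apod) and left Adipoq short of the threshold, where 58.7% of all genes passed, 27.2% upward and 31.6% downward. The median of the 9 was 1.67 against -0.031 over all genes. In the difference between the lines, all 9 passed against 51.1% of all genes, with a larger brown change for Lep and Rbp4 and a smaller or opposite one for the other 7.

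Adipoq was near the dim range in white preadipocytes and very bright in every other group. Its signals were 13.1, 40.3 and 42.5 in white preadipocytes and 34156, 32939.9 and 29256 in white adipocytes. In the brown line they were 19089, 20791 and 16205 before induction and 26904, 26089 and 26002 after it. No 2 groups overlapped, and 1 of the 3 white preadipocyte arrays lay under its 40th percentile. The rise with white differentiation was 9.45 ± 0.229 (SE) on the log2 scale (limma adjusted p = 2.83e-10). No fold is given, since the white preadipocyte mean of 31.9 lay under the range of the 40th percentiles. With brown differentiation the difference was 0.50 ± 0.229 (95% interval -0.0093 to 1.01, limma adjusted p = 0.085), which did not pass. Without the dimmest white preadipocyte array, replicate 1, the same difference had a pooled SE of 0.0985 and an adjusted p of 0.00188 in the limma fit. Brown preadipocytes stood 8.67 above white preadipocytes (limma adjusted p = 1.55e-09). They were 0.78 below white adipocytes (limma adjusted p = 0.0119), a call that was lost with scaling to the hybridization controls (adjusted p = 0.107), with quantile normalization (0.0615) and with 1 in place of 16 added to the signal (0.0844). Brown minus white adipocytes was -0.28 (95% interval -0.79 to 0.23, limma adjusted p = 0.317), which did not pass, whereas without white preadipocyte replicate 1 the adjusted p was 0.033. The order was thus white adipocyte, brown adipocyte, brown preadipocyte and white preadipocyte, in which white and brown adipocytes, and brown adipocytes and brown preadipocytes, were neighbours that did not differ beyond the pooled spread. Adipoq was at 73.2 to 75.7% of the brightest probe set of the array in white adipocytes and at 65.2 to 66.9% in brown adipocytes. In white adipocytes Rarres2 was at 54.6 to 56.2% and Retn at 47.7 to 50.1% of the brightest, and in brown adipocytes Rbp4 was at 50.1 to 54.3%. Whether signals this bright still follow the RNA in proportion was not tested for any of these genes.

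Lep was measurable in brown adipocytes and dim in the other 3 groups. Its signals were 4.44, 6.57 and 5.52 in white preadipocytes, 10.3, 8.28 and 32.8 in white adipocytes and 3.65, 4.44 and 0.804 in brown preadipocytes. All 9 of these lay under the 40th percentile of their array. In brown adipocytes they were 361, 419.6 and 413, all above every other array. The log2 rise with brown differentiation was 4.45 ± 0.221 (SE; limma adjusted p = 6.16e-08), which is at least 10.1-fold when the dim arrays are set to their 40th percentile. The log2 value depends on the constant added, at 6.80 with 1 and 2.78 with 64. Brown adipocytes stood 3.71 above white adipocytes (limma adjusted p = 2.17e-07), at least 10.6-fold. The change with white differentiation was 0.55 ± 0.221 (limma adjusted p = 0.0531), which did not pass although the groups did not overlap, and replicate 3 of the white adipocytes was the highest of them. Without white adipocyte replicate 1 or 2 its adjusted p was 0.0372 or 0.017, with a change of 0.68 or 0.74. Brown preadipocytes and white adipocytes were both dim, so that their order is not dependable and no fold is given. Brown preadipocytes minus white adipocytes was -0.73, which passed (limma adjusted p = 0.0141). That call was lost without brown preadipocyte replicate 3 (adjusted p = 0.0505), and without white adipocyte replicate 3 the difference was -0.42 (adjusted p = 0.00726). Before induction brown minus white was -0.19 (limma adjusted p = 0.518), which did not pass.

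Retn separated all 4 groups. Its signals were 26.7, 45.7 and 13.3 in white preadipocytes, of which 1 lay above its 40th percentile, and 639, 602 and 580.5 in brown preadipocytes. After differentiation they were 23304, 21591 and 19034 in white and 8343, 6871 and 7000.3 in brown adipocytes. The white line thus began lower and ended higher than the brown line. The log2 rise was 8.96 ± 0.220 (SE) with white and 3.57 ± 0.220 with brown differentiation (limma adjusted p = 3.06e-10 and 2.91e-07). Brown preadipocytes exceeded white preadipocytes by 3.87 (limma adjusted p = 2.44e-07), and brown adipocytes were 1.52 below white adipocytes (limma adjusted p = 0.000152), a ratio of 2.88 between the means.

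Rarres2, which encodes chemerin, followed the order of Retn. The probe set that stands for it, 1428538_s_at, read 110.2, 162 and 149 in white preadipocytes and 585, 571 and 603 in brown preadipocytes. White adipocytes were at 25407, 24379 and 22452, and brown adipocytes at 6381, 6607 and 6275, so that no groups overlapped. The log2 rise was 7.28 ± 0.114 (SE) with white and 3.42 ± 0.114 with brown differentiation (limma adjusted p = 2.59e-11 and 4.07e-09). Brown adipocytes were 1.90 below white adipocytes (limma adjusted p = 2.22e-07), at a ratio of 3.75. Before induction brown exceeded white by 1.96 (limma adjusted p = 2.85e-07). This probe set and 1437902_s_at are of a design that may also match related transcripts. The third, 1425091_at, was dimmer, with means of 16.1, 248, 32.2 and 70.0 in white preadipocytes, white adipocytes, brown preadipocytes and brown adipocytes, and is of a more specific design. On it the rises were 3.12 with white and 0.90 with brown differentiation (adjusted p = 1.43e-05 and 0.039), the difference between the lines was -2.22 (adjusted p = 0.00284), and the difference before induction was 0.60 with an adjusted p of 0.158, which did not pass among 31233 probe sets tested.

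Agt had opposite directions in the lines. White preadipocytes were dim at 6.09, 20.0 and 9.25, and white adipocytes were at 4359, 4657 and 4422. Brown preadipocytes were at 3684, 2999.9 and 3064, and brown adipocytes at 464, 329 and 366. All arrays of brown adipocytes were thus above the white preadipocytes and below both other groups. The log2 rise with white differentiation was 7.37 ± 0.179 (SE; limma adjusted p = 2.98e-10), at least 134-fold. With brown differentiation Agt fell by 3.03 ± 0.179 (limma adjusted p = 2.19e-07), a ratio of 8.41 between the means. The summed preadipocyte marker signal also went from 6396 to 7056 down to 179 to 215 there, and its part in this fall and in that of Apod was not tested. The difference between the lines in this change was -10.40 ± 0.254 (limma adjusted p = 2.54e-09). Brown adipocytes were 3.49 below white adipocytes (limma adjusted p = 7.51e-08), and brown preadipocytes were at least 96.8-fold above white preadipocytes (limma adjusted p = 1.45e-09). White adipocytes exceeded brown preadipocytes by 0.47 (limma adjusted p = 0.0426), a call that was lost in 14 of 27 alternative settings, among them the fits without white adipocyte replicate 1, 2 or 3, brown preadipocyte replicate 2 or 3, brown adipocyte replicate 3 or white preadipocyte replicate 3 (adjusted p = 0.0525 to 0.117).

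Apln had the narrowest range of group levels of the 9 genes and was above the 40th percentile on all 12 arrays. Its signals were 329, 362 and 318 in white preadipocytes and 829.9, 840.1 and 792 in white adipocytes. In the brown line they were 254, 340.0 and 306 before induction and 406, 369 and 406 after it. The white adipocytes stood apart from the other 3 groups, whose ranges lay close together. The log2 rise was 1.25 ± 0.0993 (SE) with white differentiation (limma adjusted p = 1.48e-06) and 0.38 ± 0.0993 with brown (limma adjusted p = 0.00727). The brown rise did not pass when arrays were scaled to the hybridization controls (0.20, adjusted p = 0.121). Brown adipocytes were 1.03 below white adipocytes (limma adjusted p = 7.76e-06). Before induction brown minus white was -0.16 (limma adjusted p = 0.195), which did not pass, and passed with equal medians (-0.43, adjusted p = 0.00493) and with quantile normalization (-0.33, adjusted p = 0.0201). In the order of the levels, brown adipocytes and white preadipocytes, and white preadipocytes and brown preadipocytes, were neighbours that did not pass (adjusted p = 0.0776 and 0.195).

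Rbp4 was high in both brown groups, more so after differentiation, and near the dim range in both white groups. White preadipocytes were at 35.5, 46.9 and 32.4 and white adipocytes at 50.6, 69.2 and 29.9, ranges that overlapped, with 2 of 3 arrays above the 40th percentile in each group. Brown preadipocytes were at 5485, 5456 and 5008 and brown adipocytes at 20648, 21461 and 20246. Every brown array was above every white array. Brown exceeded white by 6.63 ± 0.189 (SE) before and by 8.35 ± 0.189 after differentiation on the log2 scale (limma adjusted p = 2.22e-09 and 3.22e-10). With brown differentiation Rbp4 rose by 1.96 (limma adjusted p = 8.17e-06). With white differentiation the change was 0.24 (95% interval -0.18 to 0.67, limma adjusted p = 0.295), which did not pass, and without white adipocyte replicate 3 it was 0.48 with an adjusted p of 0.0115. Brown preadipocytes were 6.38 above white adipocytes (limma adjusted p = 1.33e-09). By the probe sets that stand for the genes, Rbp4 was the single member higher in uninduced brown cells than in mature white cells.

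Apod was high in white adipocytes and, at a lower level, in brown preadipocytes. Its probe set 1416371_at read 49.3, 7.72 and 6.88 in white preadipocytes and 2940.2, 2348 and 2158 in white adipocytes. Brown preadipocytes were at 770.3, 655 and 617, and brown adipocytes at 11.4, 23.0 and 24.6, all under the 40th percentile. Replicate 1 of the white preadipocytes was above its 40th percentile and the other 2 were under it. The log2 rise with white differentiation was 6.24 ± 0.355 (SE; limma adjusted p = 1.15e-07). With brown differentiation Apod fell by 4.30 ± 0.355 (limma adjusted p = 2.54e-06), at least 17.3-fold. The difference between the lines was -10.54 ± 0.503 (limma adjusted p = 1.01e-07). Brown adipocytes were at least 62.9-fold below white adipocytes (log2 difference -6.14, limma adjusted p = 1.78e-07). Before induction brown exceeded white by 4.40 (limma adjusted p = 3.03e-06), and white preadipocytes and brown adipocytes did not differ beyond their spread (limma adjusted p = 0.828). The second probe set, 1444564_at, had means of 7.02, 18.6, 116 and 34.9 in white preadipocytes, white adipocytes, brown preadipocytes and brown adipocytes. On it the white change was 0.47 (adjusted p = 0.267) and did not pass, the brown fall was 1.43 (adjusted p = 0.00442), and brown preadipocytes were 2.05 above white adipocytes (adjusted p = 0.000352), the opposite of the first probe set. Brown minus white adipocytes was 0.62 on the second probe set (limma adjusted p = 0.14), which did not pass, against -6.14 on the first. The mean of both gave 3.35 with white and -2.86 with brown differentiation.

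Nampt was bright on every array and rose in both lines. Its probe set 1417190_at read 1753, 1741 and 1765 in white preadipocytes and 9838, 9951 and 10939.6 in white adipocytes. Brown preadipocytes were at 2596, 2540.2 and 2801 and brown adipocytes at 8648, 8436 and 8255. No groups overlapped on this probe set. The log2 rise was 2.53 ± 0.0632 (SE) with white and 1.67 ± 0.0632 with brown differentiation (limma adjusted p = 3.39e-10 and 9.32e-09), ratios of 5.84 and 3.19. The 3 probe sets gave similar rises, from 2.51 to 2.77 in white and from 1.67 to 2.07 in brown cells, all past the threshold. They disagreed on the adipocytes: brown minus white was -0.28 on 1417190_at (adjusted p = 0.00824), 0.61 on 1448607_at (adjusted p = 0.00561) and 0.37 on 1455320_at (adjusted p = 0.00565) when each probe set was fitted by limma as its own feature. No direction is therefore given for Nampt between white and brown adipocytes. The smaller brown change passed on 1417190_at and 1455320_at (-0.86 and -0.83) and not on 1448607_at (-0.44, adjusted p = 0.126). Before induction brown exceeded white on all 3, by 0.59, 1.05 and 1.20.

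**Figure D2:**
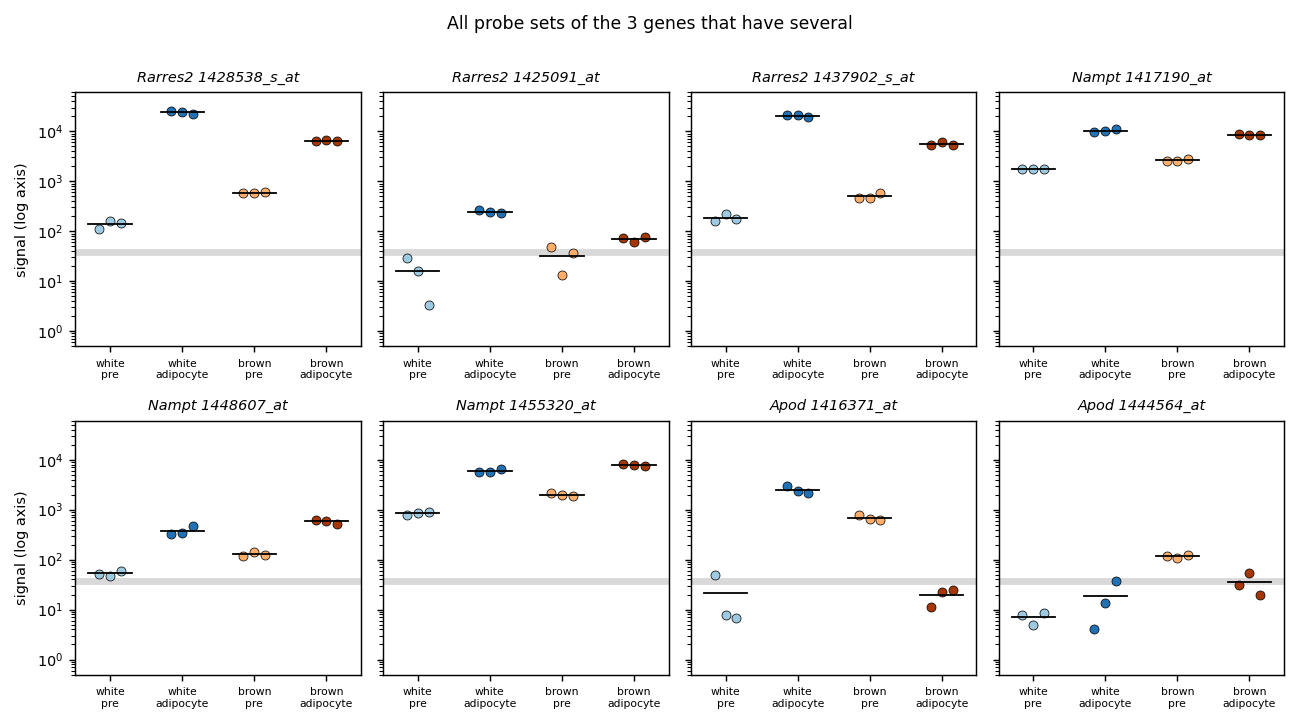
Signal of each probe set of the 3 members with more than 1 probe set, on a log axis, for the 12 arrays; points are arrays, bars are group means, and the grey band is the range of the arrays' 40th percentiles. Brown adipocytes lie under white adipocytes on Nampt 1417190_at (8446 against 10243) and above them on Nampt 1455320_at (7706 against 5964), and Apod 1444564_at is brightest in brown preadipocytes at 116.

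Between mature adipocytes of the 2 lines, Lep and Rbp4 were higher in brown cells and Retn, Agt, Rarres2 and Apln were lower. Apod and Nampt were also lower on the probe set that stands for each gene, and Adipoq did not pass. In this comparison 59.6% of all genes passed, 30.1% upward and 29.5% downward. The median difference of the 9 was -1.03 against 0.0018 over all genes. Between preadipocytes, 7 of the 9 were higher in the brown line, 0 were lower, and Lep and Apln did not pass. Here 55.1% of all genes passed, 31.3% upward and 23.8% downward, and the median difference of the 9 was 3.87 against 0.072. The summed fat cell marker signal of the uninduced brown cells was also above that of the white preadipocytes, as given above, and its part in these differences was not tested. Against mature white adipocytes, the brown preadipocytes passed with a higher signal for Rbp4 and a lower one for the other 8. Of these, Lep was dim on every array of both groups, where signals have no dependable order, so its direction is not read. The Lep, Adipoq and Agt calls are those that depended on the setting, and the Apod direction was that of its first probe set. There 64% of all genes passed, and the median of the 9 was -1.41 against 0.050. All of these comparisons share arrays and are not independent of each other.

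**Figure D3:**
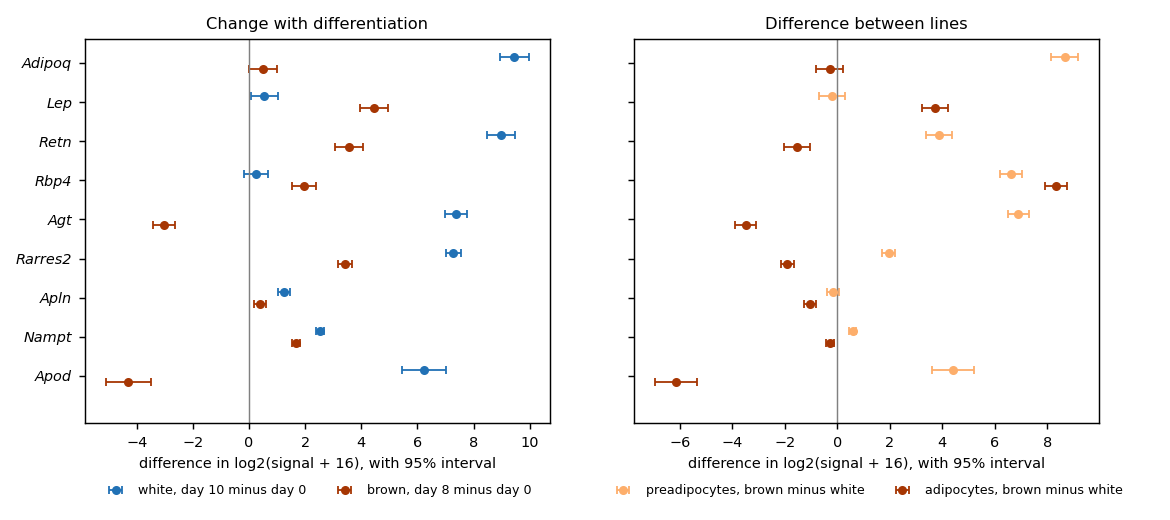
Log2 difference of each member with its 95% interval from limma, for differentiation (left: white in blue, brown in dark red) and between the lines (right: preadipocytes in orange, adipocytes in dark red); the grey line is 0. Agt and Apod lie right of 0 in white and left of 0 in brown differentiation, at 7.37 and -3.03 and at 6.24 and -4.30, and Rbp4 lies at 6.63 and 8.35 in the right panel.

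Members above the dim range were counted in each group by each array's own 40th percentile. By definition 40% of an array's probe sets lie under it, and the matching count over all genes was not made. On all 3 arrays of the group, 3 of the 9 genes lay above the 40th percentile in white preadipocytes (Rarres2, Apln and Nampt), 7 in white adipocytes, 8 in brown preadipocytes and 8 in brown adipocytes. Lep was under it on all arrays of 3 groups, Agt in white preadipocytes and Apod in brown adipocytes. Of the 3 white preadipocyte arrays, Adipoq and Rbp4 were above it on 2 and Retn and Apod on 1. Members with the most similar course over the 12 arrays were Apln and Nampt, whose gene-centred log2 signals differed by a root mean square of 0.75, and Retn and Rarres2 at 0.86. The least similar were Rbp4 and Apod at 5.20.

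Receptors and binding partners of the members were covered by 16 genes on the array, of which 12 were tested. Over the whole array 13752 of 18193 genes were tested. Of the 12, 3 rose, 2 fell and 7 did not pass in each line's differentiation. Of all genes tested, 61.3% passed in white and 58.7% in brown differentiation. Adipor2, a receptor of adiponectin, rose by 2.82 in white cells, from 1309 ± 63.0 to 9345 ± 213 (SD, n = 3), and by 2.06 in brown cells, from 1544 ± 151 to 6465 ± 69.4 (limma adjusted p = 5.38e-10 and 7.40e-09). Its relative Adipor1 rose by 0.74 and 0.65 (limma adjusted p = 5.32e-05 and 0.00016). However, the white rise fell short of the threshold in 1 alternative setting and turned in 1. The settings concerned were the mean of all probe sets of the gene and leaving out less specific probe sets. Cdh13, which encodes T-cadherin, a surface binding protein of adiponectin, fell by 0.85 in white cells (limma adjusted p = 1.40e-05) and differed by 0.0042 in brown cells, which did not pass (adjusted p = 0.974). Cap1, described as a resistin receptor in human cells, fell by 1.10 in white and fell by 1.28 in brown cells (limma adjusted p = 5.18e-07 and 2.32e-07). Tlr4, a receptor of bacterial lipids to which resistin has also been linked, rose by 1.37 in brown cells (limma adjusted p = 4.99e-07), and its white change of 0.033 did not pass.

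Among the hormone receptors proper, Lepr, the leptin receptor, rose by 1.08 in white cells (limma adjusted p = 0.00983), from 28.5 ± 17.9 to 72.1 ± 3.00 (SD, n = 3), a low level. Agtr1a, the angiotensin II type 1a receptor, was at 448 ± 18.5 in brown preadipocytes and at 28.1, 40.9 and 32.2 in white preadipocytes, white adipocytes and brown adipocytes. It fell by 3.40 ± 0.432 (SE) with brown differentiation (limma adjusted p = 6.48e-05), as did Agt. Agtr1b did not pass in either line. Aplnr, the apelin receptor, had means of 66.5, 65.9, 33.9 and 58.7 in white preadipocytes, white adipocytes, brown preadipocytes and brown adipocytes and passed in neither line. Of the chemerin receptors, Cmklr1 was not above the 40th percentile on any array, and Gpr1 and Ccrl2 passed in neither line. Stra6, the cell surface receptor of Rbp4, did not pass, and its relative Stra6l, Agtr2 and Mas1 were too dim to be tested.

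Genes that process angiotensins were tested in 9 of 12 cases, and 3 others were not analysed here. With white differentiation 3 rose, 3 fell and 3 did not pass. With brown differentiation 3 rose, 4 fell and 2 did not pass. Over all genes tested, 30.1% rose and 31.2% fell in white and 27.2% rose and 31.6% fell in brown differentiation. Enpep, the aminopeptidase that trims angiotensin II, changed in the direction of Agt in both lines: it rose by 3.00 in white cells, from 13.3 ± 6.42 to 217 ± 35.3 (SD, n = 3), and fell by 1.86 in brown cells, from 5412 ± 243 to 1487 ± 157 (limma adjusted p = 7.03e-08 and 3.51e-06). In white cells Thop1, a cytosolic peptidase, fell by 1.00 and Ctsd, a lysosomal protease, rose by 0.76 (limma adjusted p = 3.11e-06 and 3.03e-05). In brown cells Prcp, a carboxypeptidase of angiotensin II, fell by 1.57 (limma adjusted p = 0.000102), and Anpep, an aminopeptidase, fell by 1.22 at a dim level of 37.3 to 6.87 (limma adjusted p = 0.011). Mme, the endopeptidase neprilysin, resembled Rbp4, with means of 5.84 and 12.6 in the white groups and 3563 and 5765 in the brown groups.

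Retinol transport and use was covered by 11 tested genes of 18 on the array. In white cells 4 rose, 3 fell and 4 did not pass, and in brown cells 5 rose, 2 fell and 4 did not pass. The shares of all genes tested were 30.1% up and 31.2% down in white and 27.2% up and 31.6% down in brown cells. Aldh1a7, an aldehyde dehydrogenase related to those that make retinoic acid, rose by 6.48 in white cells, from 182 ± 19.2 to 17587 ± 390.1 (SD, n = 3; limma adjusted p = 6.43e-12). Dhrs3, which turns retinaldehyde back into retinol, rose by 3.26 in white and by 1.35 in brown cells (limma adjusted p = 1.42e-08 and 1.45e-05). Cyp26b1, which breaks down retinoic acid, fell by 2.21 in white cells (limma adjusted p = 3.20e-05). In brown cells Rdh10, which makes retinaldehyde, rose by 1.36 and the retinol binding protein Rbp7 by 1.29 from a dim level (limma adjusted p = 2.69e-06 and 0.000487). Ttr, the blood partner of Rbp4, was too dim to be tested, with means of 5.57 to 15.3.

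Of 12 genes of NAD synthesis and use, 11 were tested. In white cells 5 rose, 2 fell and 4 did not pass, and in brown cells 6 rose, 2 fell and 3 did not pass. Among all genes tested, 30.1% rose and 31.2% fell in white and 27.2% rose and 31.6% fell in brown cells. Nmnat3, the mitochondrial enzyme that completes NAD, rose by 1.86 in white and 2.73 in brown cells, where it went from 95.7 ± 13.2 to 728 ± 130 (SD, n = 3; limma adjusted p = 8.44e-05 and 5.77e-06). Sirt3, a mitochondrial deacetylase that uses NAD, rose by 2.01 and 2.46 (limma adjusted p = 1.17e-07 and 3.98e-08). Nnmt, which methylates nicotinamide, rose by 3.02 in white cells and fell by 1.26 in brown cells (limma adjusted p = 9.79e-10 and 7.17e-07), a difference between the lines of -4.28 (adjusted p = 4.73e-09). Nadk, which phosphorylates NAD, rose by 1.34 in brown cells (limma adjusted p = 4.75e-08), and its white change of 0.029 did not pass.

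The genes that fold and modify adiponectin in the endoplasmic reticulum nearly all rose in the white line and split in the brown line. Of 10 tested, 9 rose, 0 fell and 1 did not pass with white differentiation, where 30.1% of all genes rose. With brown differentiation 4 rose, 5 fell and 1 did not pass, where 27.2% of all genes rose and 31.6% fell. The white median of the list was 0.79 against 0.021 over all genes, and the small white rises of Erp44, Plod3 and Calr did not pass when arrays were scaled to the hybridization controls. That of Erp44 also fell short with equal medians. The Plod3 result also changed with equal medians and at an adjusted p under 0.01, and its direction turned in 1 alternative setting. Ero1a, the oxidase that forms disulphide bonds, rose by 4.51 in white and 2.86 in brown cells (limma adjusted p = 5.62e-10 and 2.07e-08). Gstk1, the disulphide-bond protein also called DsbA-L, rose by 2.85 and 2.02 (limma adjusted p = 5.92e-08 and 1.05e-06). Of the lysyl hydroxylases, Plod1 rose by 2.64 in white cells, and Plod2 rose by 2.20 in white and fell by 2.50 in brown cells (limma adjusted p = 6.64e-08, 7.18e-09 and 5.03e-09). For Plod2 the difference between the lines was -4.70 (limma adjusted p = 2.93e-09).

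Relatives of adiponectin in the C1q/TNF family were tested in 4 of 8 cases on the array. In white cells 1 rose and 3 did not pass, and in brown cells 1 rose, 2 fell and 1 did not pass. Shares over all genes tested were 30.1% up and 31.2% down in white and 27.2% up and 31.6% down in brown cells. C1qtnf12 had the same order of groups as Adipoq, with means of 195, 4794, 2479.6 and 3392 in white preadipocytes, white adipocytes, brown preadipocytes and brown adipocytes, and rose by 4.52 in white cells (limma adjusted p = 1.98e-10). C1qtnf1 and C1qtnf6 fell by 3.47 and 2.45 in brown cells (limma adjusted p = 1.95e-05 and 8.33e-08). The 2 resistin relatives on the array, Retnla and Retnlb, were too dim to be tested. Of 7 genes listed for peptide processing, which are Apela and convertases or peptidases that trim hormone precursors, 5 were tested. In each line 1 was up and 1 down, beside the same shares of all genes. Pcsk7 rose by 0.21 in white cells (limma adjusted p = 0.0406). That call was lost in 16 of 27 alternative settings and the change turned in 1. Cpe, carboxypeptidase E, fell by 1.48 in white and fell by 4.03 in brown cells (limma adjusted p = 1.55e-07 and 3.45e-10). Pcsk6, a convertase, rose by 1.52 in brown cells (limma adjusted p = 0.00654).

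Lipocalins and apolipoproteins, the families of Rbp4 and Apod, were tested in 7 of 8 cases. In white cells 6 rose, 0 fell and 1 did not pass, and in brown cells 4 rose, 1 fell and 2 did not pass. Across all genes tested, 30.1% rose and 31.2% fell in white and 27.2% rose and 31.6% fell in brown cells. Apoc1 rose by 7.90 in white and 4.51 in brown cells (limma adjusted p = 8.43e-12 and 4.56e-10). The acute-phase lipocalin Orm1 rose by 7.72 and 5.18, and Lcn2, which binds bacterial siderophores, by 5.32 and 3.01 (limma adjusted p = 3.03e-11, 6.57e-10, 1.09e-09 and 8.77e-08). Clu, which encodes clusterin, rose by 3.01 in white and fell by 1.30 in brown cells, as Apod did (limma adjusted p = 1.79e-08 and 1.35e-05). It was named after its values were seen. Of 17 other adipokines tested, 8 rose, 3 fell and 6 did not pass in white cells, and 8 rose, 4 fell and 5 did not pass in brown cells. Those counts stand beside the same shares of all genes. Haptoglobin (Hp) rose by 9.10 in white and 1.48 in brown cells (limma adjusted p = 7.88e-12 and 1.69e-06), Nrg4, a growth factor released by brown fat, rose by 3.34 in white and 4.11 in brown cells (limma adjusted p = 2.94e-08 and 1.04e-08), and Ccl2, a chemokine for monocytes, fell by 4.54 in the white and fell by 4.37 in the brown line (limma adjusted p = 1.77e-09 and 3.86e-09). Lrg1, a secreted glycoprotein, rose by 3.23 in white and 5.67 in brown cells (limma adjusted p = 1.18e-09 and 1.72e-10). Fstl1 fell by 0.54 in white and fell by 4.57 in brown cells (limma adjusted p = 0.000251 and 1.90e-10). These lists were chosen with earlier results of these arrays known and are not independent of them.

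**Figure D4:**
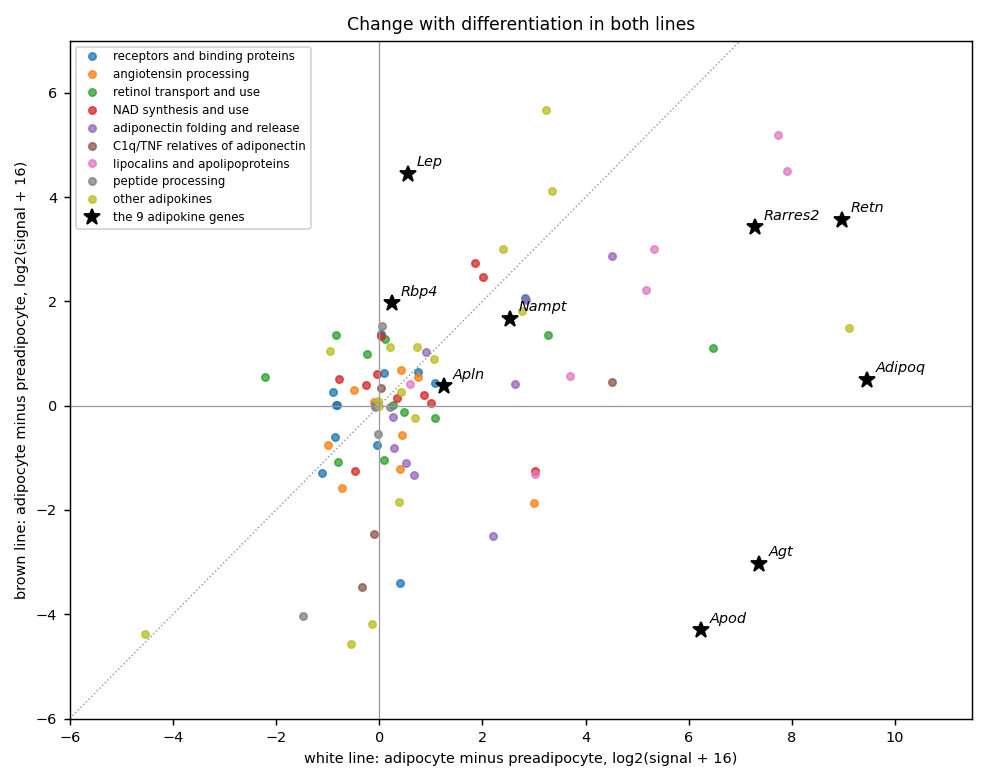
Change with differentiation in the white line (horizontal) and in the brown line (vertical), both on the log2(signal + 16) scale; black stars are the 9 members, coloured points the tested genes of the 9 lists that had any, and the dotted line marks equal change. Retn, Rarres2 and Adipoq lie far below the dotted line, Lep and Rbp4 above it, and Agt and Apod lie in the lower right quadrant.

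The genes whose course over the 12 arrays was most like that of a member are given as a description, by the root mean square difference of gene-centred log2 signals among the genes tested. For Adipoq these were Hp at 0.44, G0s2 at 0.62 and Car3 at 0.85. Car3, a carbonic anhydrase, had means of 16.1, 11875, 23649.6 and 26471 in white preadipocytes, white adipocytes, brown preadipocytes and brown adipocytes. For Lep they were Rassf4 at 0.47, Ntrk3 at 0.49 and Tmem45b at 0.53. Rassf4 was at 416 ± 65.3 (SD, n = 3) in brown adipocytes and at 4.88 or less in the other 3 groups. For Retn they were Hsd11b1, the enzyme that makes active glucocorticoid, at 0.38, Selenbp1 at 0.45 and Gpd1 at 0.47. Those of Rarres2 were Vsir at 0.32, Itih4 at 0.38 and Pck1, an enzyme of glyceroneogenesis, at 0.39.

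Rbp4 was nearest to Mme at 0.53, the cell cycle inhibitor Cdkn1c at 0.63 and the transcription factor Mycn at 0.84. Mycn had means of 41.6 and 70.8 in the white groups and 10388 and 9069.8 in the brown groups, the same split by line. Apln was nearest to Ncoa4, St3gal4 and Tmbim1 at 0.12, 0.13 and 0.13. Nampt was nearest to Ddt, Tdrp and Coasy at 0.12, 0.14 and 0.15. Agt had no close match: the nearest, Igfbp4, differed by 1.07, with Aoc3 at 1.45 and Gbp6 at 1.5. Igfbp4 had means of 80.0 in white preadipocytes, 8988 in white adipocytes, 7909 in brown preadipocytes and 5122 in brown adipocytes. For Apod the nearest were Camp, an antimicrobial peptide, at 0.63, Pdlim4 at 0.90 and the matrix protein Dpt at 1.08. Camp was at 2594 ± 220.4 in white adipocytes and 335 ± 61.8 in brown preadipocytes (SD, n = 3) and at 8.53 and 18.0 in white preadipocytes and brown adipocytes.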

How the data were processed

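Total RNA of 12 samples was labelled with a 3′ IVT kit and hybridized to 12 Affymetrix arrays with 45101 probe sets, per the labels' protocols. The deposited values are intensity signals on a linear scale, which the authors made in Affymetrix Expression Console, the tool named in the submitters' processing notes. Their trimmed mean, leaving out 2% at each end, was 500.003 to 500.004 on every array, so they had been scaled to a common value. The summarisation method is not given in the sources used here. Depth does not apply to arrays, and their number limits the precision.

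Of the probe sets, 34945 had a single gene symbol in the platform annotation, 932 several and 9211 none here. The probe set with the highest mean stood for a gene. A gene was tested if its signal lay above the 40th percentile of its array on at least 3 of the 12 arrays, which left 13752 of 18193. Values were taken as log2(signal + 16) and fitted with limma 3.58.1 in R 4.3.3 as 4 group means with eBayes moderation, and two-sided p-values were corrected in each comparison by the Benjamini-Hochberg method over all genes tested. The fit was also run on independent normal values simulated from its own model, which cannot show the effect of uneven spread between groups or of shared cultures. A fold written as "at least" sets each dim array to its 40th percentile or to its own signal where that is higher. Members, lists and named genes followed a written rule: every member, from each list up to 3 passing genes with the largest change per line, any receptor of a member, and the 3 genes most like each member. The members and lists were chosen with earlier results of these data known. Replicate numbers are shared between groups, but deviations of same-numbered arrays correlated at -0.029 to 0.067 in 18 pairs, so the numbers were not taken to pair arrays. Alternatives covered the added constant, scaling, filter, probe set choice, moderation, arrays in the fit, threshold, a replicate block and each array left out.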

Additional observations from a re-analysis of the deposited data

Results flagged for a closer look

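For each of the 9 genes the change with differentiation differed between the lines by limma's test of the difference itself, brown change minus white change on the log2(signal + 16) scale. The difference was positive for Lep, 3.90 ± 0.313 (SE; adjusted p = 3.59e-06), and for Rbp4, 1.72 ± 0.268 (adjusted p = 0.000387). It was negative for Apod, -10.54 ± 0.503 (adjusted p = 1.01e-07), and for Agt, -10.40 ± 0.254 (adjusted p = 2.54e-09), the pair that rose in white and fell in brown cells on the probe set that stands for each gene. With the mean of both its probe sets the Apod difference was -6.22 (adjusted p = 1.50e-07), and its second probe set showed no passing white change (0.47, adjusted p = 0.267). For Adipoq it was -8.95 ± 0.323 (adjusted p = 1.79e-08), where the brown line began high. Retn and Rarres2 rose in both lines, with differences of -5.40 ± 0.311 (adjusted p = 3.63e-07) and -3.86 ± 0.161 (adjusted p = 4.49e-08), the latter -2.22 on the Rarres2 probe set of specific design (adjusted p = 0.0023). For Apln it was -0.87 ± 0.140 (adjusted p = 0.000498) and for Nampt -0.86 ± 0.0894 (adjusted p = 2.24e-05), the latter on the probe set that stands for the gene. All 9 passed where 51.1% of all genes tested did. The lines also differed in serum, induction mixture and day of harvest, which cannot be told apart from the line.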

How the results depend on the processing

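The 54 changes of the members, 9 genes in 6 comparisons, were recomputed under 27 alternatives, which gave 1449 values. Of these, 1410 kept their direction and side of the threshold, 25 lost and 12 gained the threshold, and 2 turned, and 42 of the 54 changes kept both under every alternative run. The number of members passing stayed within 1.5 times its value in all 6 comparisons, a wide bound for 9 genes. Between brown preadipocytes and white adipocytes it went from 9 to 6 at an adjusted p under 0.01. It went to 7 there with 1 added to the signal, with quantile normalization and with hybridization control scaling. The values that turned came from averaging all probe sets of a gene, which joins the disagreeing probe sets described above. Nampt became higher in brown than in white adipocytes by 0.24 (limma adjusted p = 0.0408), and Apod in brown preadipocytes exceeded white adipocytes by 0.11 (adjusted p = 0.706). With the replicate block, Agt in brown preadipocytes against white adipocytes was still -0.47 but did not pass (adjusted p = 0.068). That left 8 members passing in this comparison in place of 9, where 63.5% of all genes passed. The block changed no other call of the members, and 6 of 12 arrays correlated best with arrays of their own number. Scaling to the hybridization controls shifted the median of all genes by -0.25 in white and -0.17 in brown differentiation, by 0.14 between the adipocytes and by 0.31 between brown preadipocytes and white adipocytes. The calls it ended were Adipoq and Agt in the last comparison, Apln in brown differentiation and Nampt between the adipocytes (-0.11, adjusted p = 0.278), the last also with quantile normalization (-0.093, adjusted p = 0.244). Equal medians shifted the median by -0.11 in white differentiation, by -0.12 between adipocytes, by -0.25 between preadipocytes, by -0.14 between brown preadipocytes and white adipocytes and by 0.13 in the difference between the lines. Adipoq with brown differentiation passed with an intensity trend (adjusted p = 0.0243), with only the arrays compared (0.00847) and with 64 added to the signal (0.00488). Adipoq between adipocytes passed with only the arrays compared (adjusted p = 0.0249). Lep with white differentiation passed with a filter at the 60th percentile (0.0354), and Lep in brown preadipocytes against white adipocytes did not pass with only the arrays compared (0.0628). Rarres2 before induction did not pass with the less specific probe sets left out (0.60, adjusted p = 0.147). The cause of these changes was not tested. Signals under the 40th percentile of an array have no dependable order, which limits Lep in 3 groups, Agt in white preadipocytes and Apod in brown adipocytes.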
